A study of Mus musculus with 8 samples.

Results

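The genes of respiratory complexes II to V are the nuclear genes for succinate dehydrogenase (complex II), the cytochrome bc1 complex (complex III), cytochrome c oxidase (complex IV) and ATP synthase (complex V). Members were chosen by name, as every gene whose symbol starts with Uqcr, Atp5, Cox4, Cox5, Cox6, Cox7 or Cox8, together with Sdha, Sdhb, Sdhc, Sdhd and Cyc1, and without names that contain -ps. This gave 48 genes with 64 probes, out of 47242 gene names on the array. Of the 64 probes, 51 were named through their RefSeq accession, 12 through a current symbol and 1 through an older symbol.

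The 8 samples were mouse myeloid cells, sorted from brain tissue after a stroke model. Wild-type hosts had received DsRed-positive marrow (DsRed is a red fluorescent marker of donor cells) from donors that were either wild-type at Selplg (Psgl1+/+, replicates 1 to 4) or Selplg knockout (Psgl1-/-, replicates 5 to 8). Selplg encodes PSGL-1, the leukocyte ligand of selectins. The stroke was a 30 min occlusion of the middle cerebral artery (MCAo) with reperfusion, and the ischemic brain was taken at 7 days. Cells were enriched on CD11b beads and then sorted as PI- DsRed+ CD11b+ Ly6G- CD3- CD45hi, so both groups are of donor marrow origin in a wild-type host, and both carry DsRed. The labels do not say how many chimeras went into a sample, nor the age of the animals, so a p-value here reflects the spread among the 4 samples of each label, part of which may be technical.

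The respiratory chain takes electrons from NADH at complex I and from succinate at complex II and passes them through complex III and cytochrome c to complex IV, which reduces oxygen, and ATP synthase uses the resulting proton gradient to make ATP. Complex II is also an enzyme of the TCA cycle, and succinate oxidation is known for its part in the inflammatory activation of macrophages. Several complex IV subunits and the c subunit of ATP synthase are encoded by more than one gene, some of them restricted to muscle, testis or lung.

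RNA was amplified with random primers, labelled with Cy3 and hybridised to single-colour Agilent arrays. The values below are log2 of the processed signal minus log2 of the 75th percentile of the array, so 0 is the signal of that percentile on the same array, and differences are Psgl1-/- minus Psgl1+/+. Each gene is represented by its probe with the highest mean over the 8 arrays, and levels of different genes are not compared, since probes differ in brightness. Well above background were 76.1% to 88.2% of the gene spots of an array. The correlation over all tested genes was 0.75 to 0.79 between arrays with the same label and 0.72 to 0.79 between arrays with different labels. The targeted gene did not separate the labels. Selplg read 4.24, 3.13, 3.51 and 6.19 in the Psgl1+/+ samples and 3.70, 3.90, 3.61 and 3.33 in the Psgl1-/- samples (difference -0.63, SE 0.64, limma adjusted p = 0.684). The sources used here do not say whether its probe lies in the deleted part of the gene, so each direction below is between arrays as labelled. All 8 arrays lay on 1 slide, where columns 1 and 2 held the arrays labelled Psgl1+/+ and columns 3 and 4 those labelled Psgl1-/-, so the effect of slide column and that of genotype cannot be told apart. Each of the 2 slide rows held 2 arrays per genotype.

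None of the 48 members differed between the labelled genotypes past the adjusted threshold. By limma, with p-values adjusted after Benjamini and Hochberg over every gene tested, 0 of 48 members had an adjusted p under 0.05, against 1 of 42432 tested genes (0.00236%), which was higher in the arrays labelled Psgl1-/-. At an unadjusted p under 0.05, 1 member was higher (Uqcrc2) and 1 lower (Atp5g2), against 1.62% of all genes higher and 9.21% lower. Groups did not overlap for 0 members in the higher direction and for 1 in the lower direction (Atp5g2), against 0.651% and 10.8% of the 42274 tested genes with a value on every array. The count of higher members was 0 without any single one of Psgl1+/+ replicates 1 and 2 and Psgl1-/- replicates 7 and 8, and 3 without Psgl1-/- replicate 5. The count of lower members was 2 without Psgl1+/+ replicate 2 or 4 or Psgl1-/- replicate 8, and 3 without Psgl1-/- replicate 7. Shares of all tested genes at that unadjusted p were not counted with arrays left out. All 48 members could be tested, and 45 were well above background on all 8 arrays. The sizes that the data leave possible are wide, with 95% confidence intervals that reached a median of 1.77 log2 units to either side of the estimate over the members and 1.19 over all tested genes. For 4 members the interval lay within 1 log2 unit of 0 on both sides, and for 15 within 2 units.

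The median difference was 0.22 over the 48 members and -0.33 over all tested genes, and it was positive for 28 members (58.3%) and for 31% of all tested genes. Differences past 1 log2 unit were 9 positive and 3 negative among members, against 9.7% and 12.5% of all tested genes. The median of all genes depends on the scaling, and was -0.01 after cyclic loess, when the median of the members was 0.52. The distance between both medians was 0.55 as reported and 0.34 to 0.55 under the other scalings, background corrections and value sources tried. It was 0.18 without Psgl1-/- replicate 7, when the median of the members was -0.11 and 22 of 48 were positive, and 0.21 without Psgl1+/+ replicate 1, when these were -0.11 and 20. With both Psgl1-/- replicates 7 and 8 left out, the median was -0.40 over 46 members and -0.25 over all genes, and 13 members were positive. Within slide row 1 alone the median was -0.10 over the members and -0.40 over all genes, a distance of 0.30. Within row 2 alone these medians were 0.07 and -0.29, a distance of 0.36. No test of the members as a list was made.

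**Figure D1:**
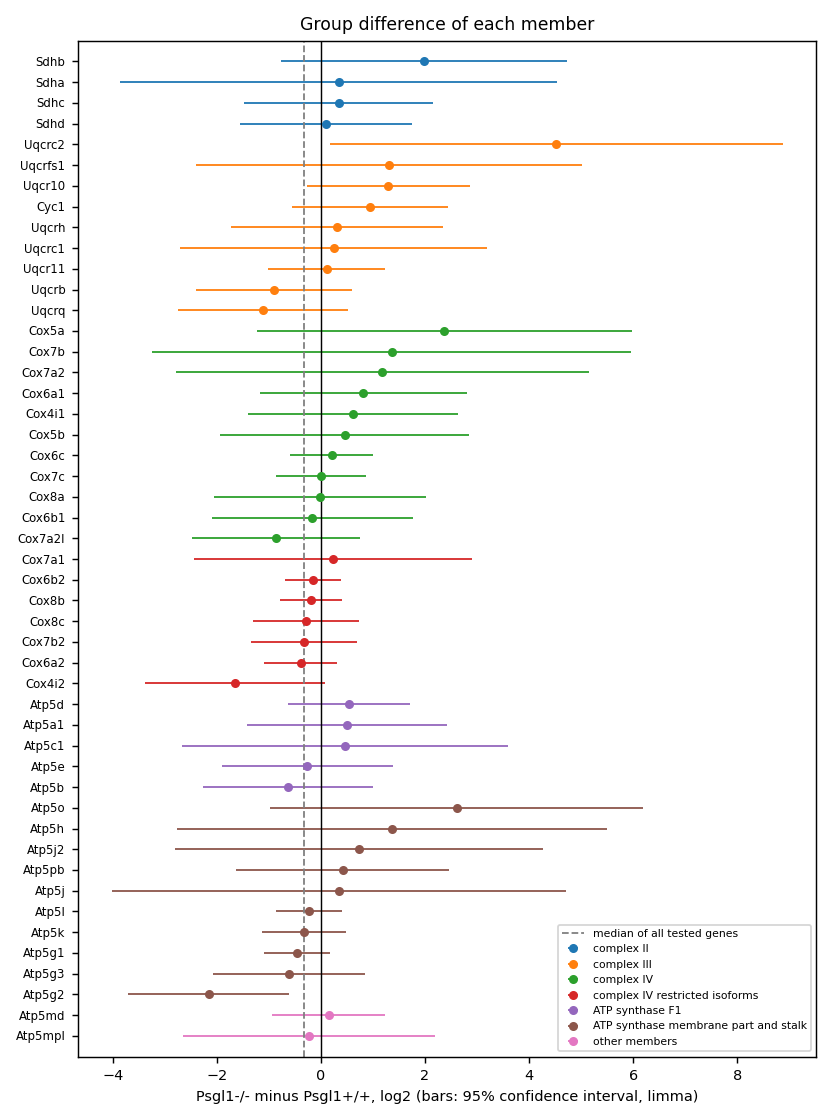
Difference of each of the 48 members (Psgl1-/- minus Psgl1+/+, log2; points) with its 95% confidence interval from limma (bars), coloured by complex; the solid line marks 0 and the dashed line the median of all tested genes, -0.33. The intervals of Uqcrc2 (0.17 to 8.87) and Atp5g2 (-3.70 to -0.61) exclude 0, before adjustment for the number of genes tested.

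Complex II, which oxidises succinate and hands the electrons to ubiquinone, had 4 members, all with a positive difference (median 0.34, range 0.09 to 1.98) and none past the threshold. Sdhb encodes its iron-sulfur subunit. It read -4.91, -6.70, -4.89 and -6.09 in the Psgl1+/+ samples and -6.80, -3.10, -0.81 and -3.98 in the Psgl1-/- samples. Psgl1-/- replicates 6, 7 and 8 were above every Psgl1+/+ array and replicate 5 below all of them, so the groups overlapped (difference 1.98, SE 1.18, limma adjusted p = 0.506). The Sdhb probe was well above background on 2 of 4 Psgl1+/+ and 3 of 4 Psgl1-/- arrays, and the size of this difference is uncertain. Sdha encodes the flavoprotein that binds succinate. Its brighter probe read -5.86, -5.94, -4.70 and -0.10 in the Psgl1+/+ samples and -5.38, -6.18, 0.48 and -4.13 in the Psgl1-/- samples, with 1 high array in each group (difference 0.34, SE 1.81, limma adjusted p = 0.945). The other tested Sdha probe differed by -3.26 (SE 2.49), with values of -4.27, -2.56, 2.49 and -6.29 against -7.76, -8.68, -7.49 and 0.28, and it was well above background on 3 of 4 and 1 of 4 arrays. The 2 Sdha probes thus gave opposite signs and different high arrays. Sdhc and Sdhd, the membrane anchors, differed by 0.34 (SE 0.78) and 0.09 (SE 0.71).

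Complex III, which passes electrons from ubiquinol to cytochrome c, had 9 members, 7 with a positive and 2 with a negative difference (median 0.31, range -1.11 to 4.52). Uqcrc2, a core protein of the complex, had the largest difference of all 48 members. Its 56-base probe reaches over the end of the coding sequence. Its first 44 bases are shown because this single probe carries the largest difference, with the stop codon in capitals.
Uqcrc2 probe, bases 1 to 44: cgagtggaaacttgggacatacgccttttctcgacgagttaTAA
This probe read -1.06, -3.42, 4.78 and -4.20 in the Psgl1+/+ samples and 2.02, 3.54, 4.02 and 4.60 in the Psgl1-/- samples. All 4 Psgl1-/- arrays were high, 3 Psgl1+/+ arrays were low, and Psgl1+/+ replicate 3 was the highest of all 8. The difference was 4.52 (SE 1.87, 23.0-fold, limma adjusted p = 0.458), and it ranged from 3.45 to 6.44 when single arrays were left out. It was 7.88 within slide row 1 alone and 1.16 within row 2 alone, so its size differed widely between the rows. The probe was well above background on all 8 arrays, so the low values also cleared that flag, which does not show that they are specific to Uqcrc2.

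The remaining complex III genes showed smaller differences or 1 array apart from the rest. Uqcr10, a small subunit, read 2.30, 0.09, 2.24 and 1.16 against 1.56, 3.63, 2.21 and 3.56. Psgl1-/- replicates 6 and 8 were above all others and the groups overlapped (difference 1.29, SE 0.68, limma adjusted p = 0.477). Cyc1 encodes cytochrome c1, which carries the electron to cytochrome c, and read -2.34, -2.17, -1.74 and -2.94 against -2.53, -1.66, 0.50 and -1.71. Psgl1-/- replicate 7 was the highest array and the other 3 lay between -2.53 and -1.66 (difference 0.95, SE 0.65). Its other probe overlaps it, read -2.53, -2.90, -3.43 and -3.63 against -3.41, -2.69, -0.62 and -2.74, and differed by 0.76 (SE 0.61). Uqcrfs1, the Rieske iron-sulfur protein, read 1.22, 3.60, -4.14 and 2.86 against 2.86, 1.46, 1.62 and 2.83. Its positive difference of 1.31 (SE 1.59) was -0.37 without the low Psgl1+/+ replicate 3, and its other probe, at -2.65, -2.87, -2.63 and -2.19 against -2.71, -3.53, -2.76 and -3.92, differed by -0.65 (SE 0.35). Uqcrc1, the other core protein, read -3.64, -3.64, -3.78 and 1.08 against -1.14, -4.33, -2.49 and -1.03, and differed by 0.24 (SE 1.27) with Psgl1+/+ replicate 4 far above the other 3. Uqcrq, a subunit next to cytochrome b, read 2.96, 3.29, 3.64 and 3.62 against 0.11, 3.15, 2.43 and 3.38. Here Psgl1-/- replicate 5 was low (difference -1.11, SE 0.71), and the difference was -0.39 without it. Uqcrb, Uqcrh and Uqcr11 differed by -0.91 (SE 0.65), 0.31 (SE 0.87) and 0.11 (SE 0.48).

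**Figure D2:**
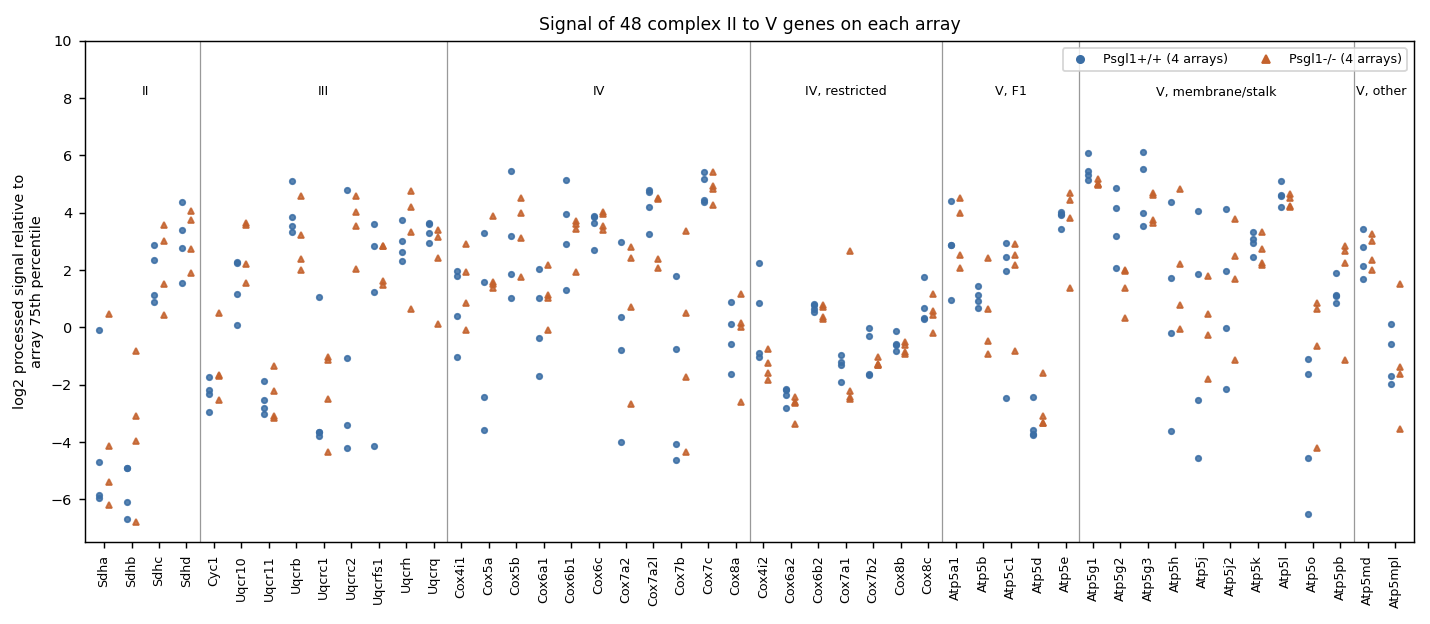
Signal of the 48 members (log2, relative to the 75th percentile of the array) on each of the 4 Psgl1+/+ arrays (blue circles) and 4 Psgl1-/- arrays (orange triangles), by complex; levels of different genes are not comparable. Values of one gene spread over more than 3 log2 units within a group for 29 of the 48 genes, and both groups overlap for every gene but Atp5g2.

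Complex IV, the terminal oxidase, had 11 broadly expressed members with a median difference of 0.46 (7 positive, 4 negative, range -0.87 to 2.37). Cox5a, a matrix-side subunit, read -2.42, 1.59, -3.59 and 3.31 in the Psgl1+/+ samples and 1.59, 1.38, 3.88 and 1.51 in the Psgl1-/- samples. The Psgl1-/- arrays lay close together apart from replicate 7, while the Psgl1+/+ arrays were split between 2 low and 2 higher ones (difference 2.37, SE 1.55, limma adjusted p = 0.531). Cox4i1, the main isoform of the largest nuclear-encoded subunit, read -1.04, 0.41, 1.97 and 1.80 against -0.07, 0.85, 1.92 and 2.90, with overlapping groups (difference 0.61, SE 0.87). Cox7b and Cox7a2 differed by 1.35 (SE 1.98) and 1.18 (SE 1.71), Cox6a1 by 0.81 (SE 0.85), Cox5b by 0.46 (SE 1.03) and Cox6c by 0.21 (SE 0.34). Cox7c and Cox8a were at -0.00 (SE 0.37) and -0.01 (SE 0.88), Cox6b1 at -0.16 (SE 0.83), and Cox7a2l, which takes part in joining complexes III and IV, at -0.87 (SE 0.69). The interval of Cox7c, from -0.86 to 0.86, was among the 4 that lay within 1 log2 unit of 0.

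Complex IV isoforms restricted to other tissues had 7 members. Of these, Cox6a2, Cox7a1 and Cox8b are heart and skeletal muscle forms, Cox6b2, Cox7b2 and Cox8c testis forms, and Cox4i2 the form of lung and of oxygen-sensing cells. Their median difference was -0.28, with 1 positive and 6 negative, near the median of all tested genes, -0.33, of which 31% were positive. The range within a group had a median of 0.92 log2 units in both groups for these 7, against 2.52 (Psgl1+/+) and 2.75 (Psgl1-/-) for the other 41 members, whose median difference was 0.34, and 1.37 and 1.43 for all tested genes. No difference between these sets was tested. Probes of all 7 were well above background on all 8 arrays, so that status alone does not tell a gene of these cells from one that they are not known to use. Cox4i2 read 2.23, -0.88, 0.86 and -1.04 in the Psgl1+/+ samples and -1.26, -1.83, -1.59 and -0.76 in the Psgl1-/- samples. Psgl1+/+ replicates 1 and 3 were high, and replicates 2 and 4 lay among the Psgl1-/- arrays (difference -1.65, SE 0.74, limma adjusted p = 0.458).

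ATP synthase consists of the F1 head, which makes ATP, and a membrane part with a ring of c subunits, joined by stalks. The 5 F1 members had a median difference of 0.47 (3 positive, 2 negative, range -0.63 to 0.53). Atp5a1 encodes the alpha subunit and read 0.97, 2.89, 2.88 and 4.40 against 2.54, 2.09, 4.53 and 3.98, with overlapping groups (difference 0.50, SE 0.83). Atp5b, the catalytic beta subunit, read 1.12, 1.45, 0.93 and 0.67 against -0.49, -0.92, 2.42 and 0.66. The Psgl1+/+ arrays lay within 0.78 of each other, Psgl1-/- replicates 5 and 6 were below them, replicate 8 just below and replicate 7 above (difference -0.63, SE 0.70, limma adjusted p = 0.714). The gamma, delta and epsilon subunit genes Atp5c1, Atp5d and Atp5e differed by 0.47 (SE 1.35), 0.53 (SE 0.50) and -0.26 (SE 0.71).

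The membrane part and stalk had 10 members with a median difference of 0.06 (5 positive, 5 negative, range -2.16 to 2.61). Among them Atp5g1, Atp5g2 and Atp5g3 encode the same mature c subunit behind different import sequences, and all 3 had a negative difference. Atp5g2 read 3.20, 2.09, 4.86 and 4.17 in the Psgl1+/+ samples and 1.37, 1.97, 0.34 and 2.0 in the Psgl1-/- samples. It was the 1 member whose groups did not overlap, though the lowest Psgl1+/+ array and the highest Psgl1-/- array were close (2.09 against 2.0). The difference was -2.16 (SE 0.67, 0.224-fold, limma adjusted p = 0.458), and from -2.65 to -1.73 when single arrays were left out. Atp5g3 differed by -0.62 (SE 0.63). Atp5o, the subunit that joins F1 to the stalk, read -4.54, -1.11, -6.50 and -1.63 against -4.22, 0.64, -0.63 and 0.85. Psgl1-/- replicates 6, 7 and 8 were above all Psgl1+/+ arrays and replicate 5 was not (difference 2.61, SE 1.54, limma adjusted p = 0.503); the probe was not well above background on 1 Psgl1+/+ array. Of the others, Atp5h, Atp5j2, Atp5pb and Atp5j differed by 0.34 to 1.37, and Atp5l and Atp5k by -0.23 (SE 0.27) and -0.33 (SE 0.35). Atp5md and Atp5mpl, small accessory subunits outside these groups, differed by 0.15 (SE 0.47) and -0.23 (SE 1.04).

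Atp5g1 was measured by 2 probes that gave opposite signs, and their sequences show how different they are. The brighter one, designed on an Ensembl transcript at chr11:95930317-95930376 of mm9 on the minus strand, holds a run that also occurs elsewhere. Capitals mark the part whose 18-base runs were found, on either strand, in the RefSeq promoter windows (GRCm38.p6) of 18 other genes. The probe on the RefSeq transcript is given whole and in lower case.
Atp5g1 Ensembl probe, bases 17 to 46: ggctggcGAGTTGGCTCAGTGGTTAAGAGC
Atp5g1 RefSeq probe: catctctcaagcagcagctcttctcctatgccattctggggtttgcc
The Ensembl probe read 5.32, 5.46, 5.14 and 6.07 in the Psgl1+/+ samples and 5.01, 5.18, 4.96 and 5.0 in the Psgl1-/- samples, which overlapped through Psgl1-/- replicate 6 (difference -0.46, SE 0.27, limma adjusted p = 0.503). The RefSeq probe read -2.60, 0.45, -0.29 and -1.89 against 1.62, 0.89, -1.13 and 1.56, with replicates 5, 6 and 8 above every Psgl1+/+ array (difference 1.82, SE 0.87, limma adjusted p over all probes = 0.482). With the mean of its probes, Atp5g1 differed by 0.68. The value of Atp5g1 therefore depends on the probe, and the sign shared by the 3 c subunit genes rests on the Ensembl probe. Runs of 18 bases were shared with probes of other genes by 6 of the 64 member probes, and with promoter windows of other genes by 4. Both Atp5g1 probes were among the 6. The RefSeq probe shared a run with probes of 2 other gene names, and the Ensembl probe with those of 1.

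A second tested probe existed for 13 members, and its difference had the same sign for 7 and the opposite sign for 6. Probes that overlap in sequence read the same pattern over the arrays, and most others did not. Both Atp5j probes are shown because they bear this out most plainly; Atp5j encodes coupling factor 6 of the stalk. Capitals mark the 46 bases that they share, and the longer one lies at chr16:84828711-84828770 of mm9 on the minus strand.
Atp5j longer probe: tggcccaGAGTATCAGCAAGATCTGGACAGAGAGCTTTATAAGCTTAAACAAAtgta
Atp5j shorter probe: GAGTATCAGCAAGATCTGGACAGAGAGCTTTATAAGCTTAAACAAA
The longer Atp5j probe read -2.53, -4.56, 1.88 and 4.05 in the Psgl1+/+ samples and -0.27, -1.78, 1.79 and 0.46 in the Psgl1-/- samples, a span of 8.61 log2 units. After each probe was centred on its mean, the gap between both Atp5j probes on an array had a median of 0.09 and a maximum of 0.26. So the wide spread of Atp5j between arrays was the same at 2 separate spots. The other pairs that share 15 or more bases, those of Cyc1 (35 bases) and Atp5k (33 bases), had median gaps of 0.19 and 0.06. Of the 10 pairs that share fewer, Atp5pb had a median gap of 0.35 and the other 9 from 0.79 (Atp5d) to 4.21 (Sdha). Both probes were highest on the same array for 4 of 13 genes. Atp5l had opposite signs at its 2 probes, -0.23 (SE 0.27) and 1.46 (SE 0.64).

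**Figure D3:**
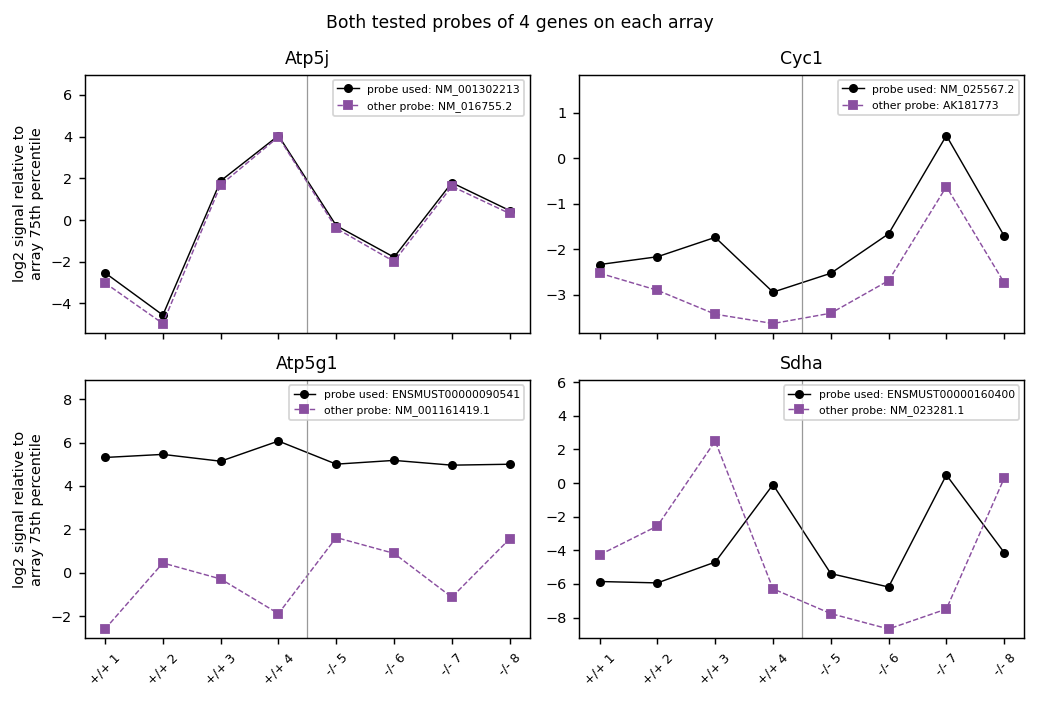
Signal on each array (log2, relative to the 75th percentile of the array) of both tested probes of 4 genes; the vertical line parts the Psgl1+/+ from the Psgl1-/- arrays, and lines join the arrays of 1 probe without implying an order. The overlapping probes of Atp5j and Cyc1 follow each other, while the separate probes of Atp5g1 and Sdha are highest on different arrays.

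The spread between arrays of a group was larger for these genes than for genes at large. The range within a group exceeded 3 log2 units in 1 or both groups for 29 of 48 members (60.4%) and for 35.5% of all tested genes, and it exceeded 5 units for 14 members. It stayed under 1 unit in both groups for 5 members. By array, the largest shift of the members was on Psgl1-/- replicates 7 and 8. Relative to each gene's mean over the 8 arrays, the median member was at 0.69 on Psgl1-/- replicate 7 and 0.49 on replicate 8, but at -0.31 and -0.27 on replicates 5 and 6. The Psgl1+/+ arrays were at -0.22, -0.33, 0.19 and 0.22. Over all tested genes the same value was -0.41 and -0.34 on Psgl1-/- replicates 7 and 8, and -0.16 and -0.14 on replicates 5 and 6. On Psgl1+/+ replicates 1 to 4 it was 0.08, 0.04, -0.05 and 0.26, so replicate 4 was high for genes at large too. Psgl1-/- replicate 7 was the highest array for 15 of 48 members, followed by Psgl1+/+ replicates 3 (11) and 4 (10). Of all tested genes, 9.44% were highest on Psgl1-/- replicate 7, 12.03% on Psgl1+/+ replicate 3 and 27.75% on Psgl1+/+ replicate 4. Members above their own mean numbered 30, 27, 33 and 36 of 48 on Psgl1+/+ replicates 3 and 4 and Psgl1-/- replicates 7 and 8, the arrays of slide columns 2 and 4. On Psgl1+/+ replicates 1 and 2 and Psgl1-/- replicates 5 and 6, those of columns 1 and 3, they numbered 22, 21, 15 and 15. The same count over all tested genes was not made.

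**Figure D4:**
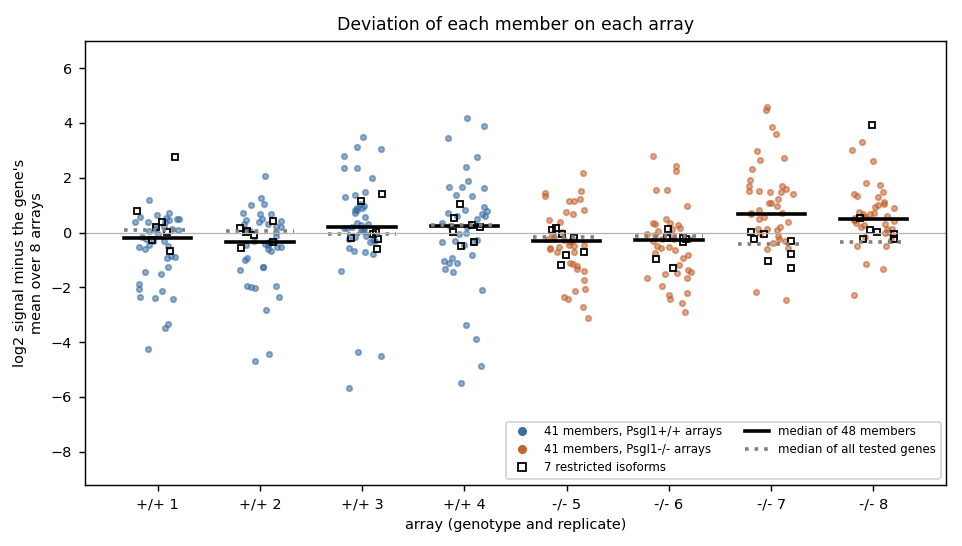
Log2 signal of each member minus its mean over the 8 arrays, by array; dots are the 41 broadly expressed members and squares the 7 restricted isoforms, black bars the median of the 48 members and dotted grey bars the median of all tested genes. On Psgl1-/- replicates 7 and 8 the members lie above 0 (medians 0.69 and 0.49) and all genes below (-0.41 and -0.34).

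Markers of the sorted cell type moved across the same arrays. The 10 monocyte and macrophage markers were all well above background on every array, with a median level of 3.40, 3.66, 3.35 and 3.20 on Psgl1+/+ replicates 3 and 4 and Psgl1-/- replicates 7 and 8, and of -1.10, -0.32, 1.30 and 0.93 on Psgl1+/+ replicates 1 and 2 and Psgl1-/- replicates 5 and 6. The 6 microglia markers had medians of 3.155, 1.09, 1.80 and 2.46 on the former arrays and -0.37, 0.76, -0.14 and 1.56 on the latter. The part of either list in the array pattern of the members was not tested. Between genotypes the 10 monocyte and macrophage markers had a median difference of 0.34, with 6 positive and 4 negative and none past the threshold. The lists for other cell types had 0 genes past the adjusted threshold. Medians were 0.50 for 8 neutrophil, -0.49 for 6 T cell, -0.54 for 5 B cell, 0.08 for 5 NK cell and 0.05 for 6 microglia markers. They were -0.57 for 6 neuron, -0.23 for 5 astrocyte, -0.42 for 5 oligodendrocyte, -0.28 for 4 endothelial and -0.16 for 3 erythroid markers. Summed over the list and averaged per gene, neutrophil markers ranged from -3.22 to -1.28 on the Psgl1+/+ arrays and from -1.99 to 0.04 on the Psgl1-/- arrays, highest on Psgl1-/- replicate 7; none of the 8 was below background on a whole group, and Ly6g, which the sort selected against, differed by 2.40 (SE 1.54). Of the 8 neutrophil markers 5 had a positive and 3 a negative difference, with a range from -0.69 to 4.79. At an unadjusted p under 0.05, S100a9 was the 1 neutrophil marker that was higher (4.79, SE 1.43). Lower at that p were 3 of 6 neuron, 2 of 5 B cell and 1 of 4 endothelial markers (Pecam1, -1.04, SE 0.25). The other marker lists had 0 in either direction, and the shares of all tested genes were 1.62% higher and 9.21% lower. Neuron markers were well above background on all 8 arrays. Their mean over the 6 genes was 2.35 to 2.90 on the Psgl1+/+ arrays and 1.98 to 2.56 on the Psgl1-/- arrays. Whether RNA of neurons was present in the samples was not tested, so background status alone is not read here as a sign of cell type. In these bulk samples fewer cells of a type and less RNA per cell cannot be told apart, and the part of cell makeup in the results was not tested.

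Other genes of the pathway were followed in lists chosen by function, and 0 of them passed the adjusted threshold by limma in any list. The 13 TCA cycle genes had a median difference of 1.16 (11 positive, 2 negative), and 2 were higher at an unadjusted p under 0.05 (1.62% of all tested genes). Of these, Idh3g, a subunit of isocitrate dehydrogenase, differed by 4.68 (SE 1.83) but was well above background on 1 of 4 Psgl1+/+ arrays. Assembly factors were mixed. Of 20 tested for complex IV, 12 were positive and 8 negative (median 0.41), and 1, Surf1, was lower at an unadjusted p under 0.05 (difference -4.89, SE 1.45), with its probe above background on 1 of 4 Psgl1-/- arrays. The 6 complex III assembly factors had a median of -0.19 (2 positive), the 5 factors of ATP synthase 0.30 (4 positive) and the 2 tested of 4 for complex II 0.21, with none at an unadjusted p under 0.05 in either direction. Cycs, the electron carrier cytochrome c, differed by 0.93 (SE 1.41), and the 1 mitochondrially encoded subunit with a tested probe, ATP8, by -0.36 (SE 0.33).

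Regulators of mitochondrial gene expression had a negative median difference, as genes at large did. Of 13, 3 were positive and 10 negative, and 31% of all tested genes were positive. The median was -0.63, against -0.33 over all tested genes, and the differences ranged from -1.05 to 2.50. At an unadjusted p under 0.05, 5 were lower, against 9.21% of all tested genes. Esrra, a nuclear receptor that drives oxidative genes, differed by -0.99 (SE 0.27), and Gabpb1, a partner of the ETS factor Gabpa, by -0.81 (SE 0.26). Of 14 carriers and membrane organisers 8 were positive and 6 negative (median 0.27), with Timm23, the inner membrane import channel, at 3.43 (SE 1.41) and Tomm40, the outer membrane import channel, at -1.04 (SE 0.39).

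Complex I and the mitochondrial ribosome, the nearest groups of mitochondrial genes, gave a like picture of wide spread. The 46 Nduf genes of complex I had a median difference of 0.69 (33 positive, 13 negative), with 4 higher and 1 lower where the unadjusted p was under 0.05 (1.62% and 9.21% of all tested genes). The 75 tested genes of mitochondrial ribosomal proteins had a median of 0.07 (38 positive, 37 negative), with 3 higher and 1 lower. Within-group ranges had medians of 3.30 and 3.42 for Nduf genes and 3.56 and 3.74 for ribosomal ones (Psgl1+/+ and Psgl1-/-), against 2.04 and 2.52 for the members. No difference between these groups was tested. With tested genes split by mean signal into 4 equal bins of 10608, 31 of the 48 members lay in the brightest bin, where the median difference of all genes was -0.33, and the other bins had medians of -0.41, -0.31 and -0.26.

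Nuclear respiratory genes are known targets of NRF1 and of ETS factors of the GABP type, so the promoters were searched for these motifs. A RefSeq window (GRCm38.p6) was found for 36 of the 48 members, of which the 250 bases before the start were read. The NRF1 motif GCATGCGC, on either strand, was present in 5 of 36 (13.9%), against 2.56% of 27025 genes with a window and 3.32% of 17492 coding genes. The ETS motif CCGGAAG, on either strand, was present in 9 of 36 (25%), against 7.83% and 10.2%. Neither motif contains the other, and 2 members held both. Windows of Atp5g2 and Sdhb are shown, as 2 members with an NRF1 match and differences of opposite sign, over bases 100 to 1 before the start. The match is in capitals, and in Atp5g2 it is a pair of overlapping matches on both strands. They lie at chr15:102671048-102671147 on the minus strand and chr4:140961171-140961270 on the plus strand.
Atp5g2 promoter: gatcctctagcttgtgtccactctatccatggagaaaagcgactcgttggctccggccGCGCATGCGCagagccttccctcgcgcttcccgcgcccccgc
Sdhb promoter: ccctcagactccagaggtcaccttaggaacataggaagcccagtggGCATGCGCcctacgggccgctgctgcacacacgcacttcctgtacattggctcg
The median difference was 0.10 over the 12 members with either motif (7 positive) and 0.29 over the 24 with neither (15 positive). A match of letters is a description of the sequence and does not show that a factor binds there.

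**Figure D5:**
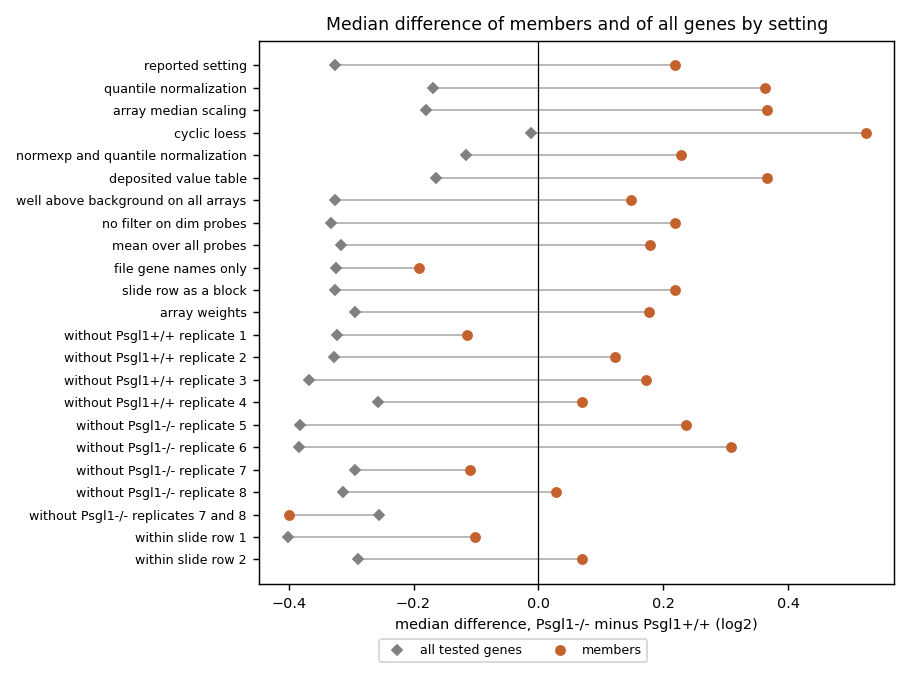
Median difference (Psgl1-/- minus Psgl1+/+, log2) over the members (orange circles) and over all tested genes (grey diamonds) under each setting tried. The median of the members runs from -0.40 without Psgl1-/- replicates 7 and 8 to 0.52 after cyclic loess, and lies above that of all genes under every setting shown except the former.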

How the data were processed

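Per the labels' protocols, total RNA of 8 samples was labelled with Cy3 after random priming; per the file headers, Agilent Feature Extraction 11.5.1.1 read the arrays, with mm9 as the design build. The deposited scanner files give each spot's processed signal as a linear intensity, background-corrected within the array by the authors' scanner software. The deposited value table (59448 rows) held intensity values with identical sorted values in each column and a median of 132.9, and was used as an alternative; its scale and centring are otherwise not given in the sources used here, and log2 values of a column had a correlation of at least 0.989 with the matching array and at most 0.80 with the rest.

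Control spots (1439 per array) and spots with outlier flags (25 to 149) were left out, and spots of a probe were averaged. Values were log2 processed signal minus log2 of the array's 75th percentile over gene spots. Probes were named through RefSeq accessions or symbols (GRCm38.p6; 31064 by accession, 8935 by symbol, 420 by older symbol, 19854 unmatched of 60273); mm9 coordinates are those of the files. Each gene was its probe with the highest mean over the arrays, and genes entered the test if this probe cleared background (the scanner's well-above flag) on 4 or more of 8 arrays (42432 genes; 51380 probes in the fit of all probes). Differences were fitted with limma 3.58.1 (lmFit and eBayes, two-sided, Benjamini-Hochberg over all tested genes, threshold 0.05) in R 4.3.3; a gene with no value on an array was fitted on the others (158 genes, no member). The number of arrays limits the precision. Scripts were tested on simulated data.

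Values on all arrays are given for the 10 members with the smallest unadjusted p and for 10 core or catalytic subunits, 16 genes in all; pathway genes, at most 2 of smallest p per list, are given by their difference. Atp5j was singled out after its values were seen. The values of 1 gene of the pathway lists are not reported here. Members and lists were chosen with earlier results of these data known. Alternatives were other scalings, background correction, the value table, filters, probe rules, naming, slide row as a block, array weights and left-out arrays; fits within each slide row were added after seeing the data.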

Additional observations from a re-analysis of the deposited data

Results flagged for a closer look

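In 34 groups of 4 arrays (16 named members and the median of the members, in each genotype), 2 had a single array far from the other 3 by Dixon's 95% criterion, and chance gives about 1 in 20. Cox5a was at 3.88 on Psgl1-/- replicate 7, with the other 3 arrays between 1.38 and 1.59. Uqcrc1 was at 1.08 on Psgl1+/+ replicate 4, with the other 3 between -3.78 and -3.64.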

How the results depend on the processing

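The count of members past the adjusted threshold was 0 under all 22 alternatives, and the lowest limma adjusted p of a named member was 0.207. The median difference of the members, 0.22 as reported, was -0.40 without Psgl1-/- replicates 7 and 8, a move larger than the SD of the members' array medians among Psgl1+/+ arrays (0.53) and smaller than that among Psgl1-/- arrays (0.75). Under the other alternatives it moved by less than both, ranging from -0.11 to 0.31 with single arrays left out (-0.11 without Psgl1+/+ replicate 1 and without Psgl1-/- replicate 7), and was -0.19 over the 12 members that the files' own gene names give. At an unadjusted p under 0.05, members numbered 0 to 3 higher and 1 to 3 lower with single arrays left out, 0 and 0 by the files' gene names, 2 and 2 with slide row as a block, 0 and 3 without Psgl1-/- replicates 7 and 8, 5 and 1 within slide row 1, and 2 and 2 within row 2. Shares of all tested genes at that p were not counted under these alternatives. Whether the members exceed genes at large there is therefore not known.

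Of 335 values of named members under alternatives, 310 kept their sign and 25 did not. Some of the 310 could not change. With slide row as a block, and under either filter on dim probes, the estimates equal those of the reported setting. The 25 concern 8 genes. The probe of a gene was chosen again where the arrays or values changed, and the cause of the reversals was otherwise not tested. Sdha was at -0.98 after normexp correction and at -1.46 as the mean of its probes, Atp5g1 at 0.68 as the mean of its probes, and Uqcrfs1 at -0.65 by the files' gene names, which keep only its other probe. With single arrays left out, Uqcrfs1 ranged from -0.37 to 2.21, Uqcrc1 from -0.18 to 1.43 and Atp5a1 from -0.11 to 1.04. Sdha ranged from -4.47 to 0.87, but this range mixes both of its tested probes. Its other probe had the higher mean without Psgl1+/+ replicate 4, and gave the -4.47. The same probe gave -2.33 without Psgl1-/- replicate 6 and -2.73 without Psgl1-/- replicate 7. Without Psgl1-/- replicates 7 and 8, Atp5a1, Cox4i1 and Uqcrc1 were at -0.47, -0.40 and -0.24. Within slide row 1, Atp5a1, Cox5a, Sdha, Uqcrc1 and Uqcrfs1 were at -0.61, -1.0, -2.14, -1.40 and -1.08, and within row 2 Uqcr10 was at -0.38. No paired analysis was possible because the groups share no replicate numbers. Signal over background limits Sdha, Sdhb and Atp5o, whose probes were not well above background on every array.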
